A study of Mus musculus with 38 samples.

Results

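The genes described here are 10 genes of white adipocytes, *Adipoq*, *Retn*, *Plin1*, *Lep*, *Fabp4*, *Cfd*, *Pparg*, *Lipe*, *Cidec* and *Pnpla2*, among the 19938 genes that could be named on the arrays. They were chosen by gene symbol, and each was read from the probe set that carries its symbol alone. *Cfd* has no such probe set and is named only, so 9 of the 10 genes have values. The thyroids of 38 FVB/N mice were each hybridised to a GeneChip Mouse Gene 1.0 ST array. In the transgenic lines tg1, tg2 and tg3 a bovine thyroglobulin promoter, active in thyroid follicular cells, drives a cDNA of human *BRAF*V600E. The RNA and the diagnosis come from different pieces of the same gland, since one piece was used for the array and the rest for histology. Fat, muscle and parathyroid lie next to the mouse thyroid, and fewer cells of a type and less RNA per cell cannot be told apart in such samples.

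A mouse was called *BRAF*(+) where the transgene RNA was found and *BRAF*(-) where it was not. The asymptomatic thyroids (AT) came from 5 *BRAF*(-) mice of 4 to 12 months (3 females and 2 males) and 5 *BRAF*(+) mice of 7 to 11 months (4 females and 1 male). The benign hyperplastic lesions (BHL) came from 4 *BRAF*(-) mice of 6 to 24 months and 4 *BRAF*(+) mice of 4 to 11 months, with 3 females and 1 male in each. The 10 borderline lesions (BL), thyroids with altered nuclei short of carcinoma, came from *BRAF*(+) mice of 4 to 21 months, and the 10 papillary thyroid carcinomas (PTC) from *BRAF*(+) mice of 6 to 21 months, with 8 females and 2 males in each group. The *BRAF*(-) mice were genotyped as non-transgenic, except for 1 mouse of the tg1 line with BHL, which carried the transgene without its RNA. The study lists that mouse as the only *BRAF*(-) BHL above 12 months, so it is mouse M_764, of 24 months. AT and BHL together are the 18 non-malignant thyroids, 9 *BRAF*(+) and 9 *BRAF*(-). The labels give no line for single mice, but the study lists line by lesion and age. By that list these *BRAF*(+) mice belonged to tg3, except for the AT mouse of 7 months, M_779, of tg2. Most of the *BRAF*(-) mice were of tg2, with some of tg3, and for part of them the line is not known by mouse. Line and *BRAF* status thus largely go together. Line was in no model, and its part was not tested.

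White adipocytes store triglyceride in a single large lipid droplet and release it as fatty acids and glycerol when energy is needed. Perilipin 1 (*Plin1*) and the fusion protein *Cidec* coat and enlarge the droplet, adipose triglyceride lipase (*Pnpla2*) and hormone-sensitive lipase (*Lipe*) break its triglyceride down, and *Fabp4* carries fatty acids through the cytoplasm. The cells also secrete hormones, among them adiponectin (*Adipoq*), resistin (*Retn*), leptin (*Lep*) and adipsin (*Cfd*), and the nuclear receptor *Pparg* drives the formation of the cells and most of these genes. *Adipoq*, *Retn*, *Plin1*, *Lep* and *Cidec* are made mainly in fat, whereas *Pnpla2* is active in many tissues, *Fabp4* also in capillary endothelium and macrophages, and *Pparg* in macrophages.

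The bases that lie before the start of these genes were read from RefSeq on GRCm38.p6, which held 13 windows for 9 of the 10 genes (none for *Fabp4*). The windows of 6 genes are given, because these genes either fell the most in *BRAF*(+) thyroids or carry a sequence pattern bound by the C/EBP factors, which act with *Pparg* in adipocytes. Each window holds the 250 bases before the start, 5′ to 3′ on the strand of the gene, with matches to TTNNGCAA on either strand in capitals. *Adipoq* is at chr16:23146286-23146535 and *Retn* at chr8:3655520-3655769, both on the plus strand. *Plin1* is at chr7:79732777-79733026 and 1 of 2 *Cidec* starts at chr6:113434765-113435014, both on the minus strand. *Lep* is at chr6:29059971-29060220 and 1 of 3 *Pparg* starts at chr6:115421816-115422065, both on the plus strand.
*Adipoq*: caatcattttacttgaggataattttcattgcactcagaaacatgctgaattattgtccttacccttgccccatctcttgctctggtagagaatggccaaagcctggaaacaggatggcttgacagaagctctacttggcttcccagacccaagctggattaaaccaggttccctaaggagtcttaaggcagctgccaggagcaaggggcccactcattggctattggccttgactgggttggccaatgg
*Retn*: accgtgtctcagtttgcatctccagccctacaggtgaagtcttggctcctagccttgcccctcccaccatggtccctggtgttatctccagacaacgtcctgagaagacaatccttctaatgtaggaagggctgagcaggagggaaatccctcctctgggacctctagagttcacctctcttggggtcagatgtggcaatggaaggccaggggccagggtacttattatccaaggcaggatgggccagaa
*Plin1*: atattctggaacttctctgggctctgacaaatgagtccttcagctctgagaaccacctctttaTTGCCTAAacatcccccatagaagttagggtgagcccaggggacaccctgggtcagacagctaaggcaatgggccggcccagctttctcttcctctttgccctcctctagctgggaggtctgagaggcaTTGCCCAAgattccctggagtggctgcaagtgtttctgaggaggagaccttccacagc
*Cidec*: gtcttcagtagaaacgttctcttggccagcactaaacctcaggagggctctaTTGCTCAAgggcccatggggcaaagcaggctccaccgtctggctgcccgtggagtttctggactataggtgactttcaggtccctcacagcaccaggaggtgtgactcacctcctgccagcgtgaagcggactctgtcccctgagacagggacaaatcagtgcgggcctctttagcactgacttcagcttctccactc
*Lep*: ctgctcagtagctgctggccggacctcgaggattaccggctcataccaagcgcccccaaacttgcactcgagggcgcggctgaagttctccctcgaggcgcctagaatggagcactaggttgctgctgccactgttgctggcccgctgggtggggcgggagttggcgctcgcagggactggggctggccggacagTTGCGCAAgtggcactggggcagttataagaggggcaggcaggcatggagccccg
*Pparg*: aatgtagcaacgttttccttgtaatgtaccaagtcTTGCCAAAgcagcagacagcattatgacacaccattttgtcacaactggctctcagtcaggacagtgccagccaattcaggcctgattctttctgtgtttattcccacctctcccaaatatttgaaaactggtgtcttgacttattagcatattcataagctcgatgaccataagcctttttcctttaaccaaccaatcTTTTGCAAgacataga
The pattern TTNNGCAA, searched on both strands, was found in 4 of the 13 windows, and in 9.56% of all 32851 windows of this length. *Lep* has a match on both strands at the same bases, 55 to 48 before the start. *Plin1* has a match at bases 187 to 180 and another at bases 58 to 51 before the start, and this *Pparg* start has one at bases 215 to 208 and one at bases 16 to 9. This *Cidec* start has a match at bases 198 to 191 before it. The site AGGTCA, which *Pparg* and related receptors bind, was found in 2 of the 13 windows, both at other *Pparg* starts, and in 14.0% of all windows. A direct repeat of that site with 1 base between its copies was found in 0 of the 13 windows and in 0.0335% of all windows, and TATAAA in 1 of the 13, at another *Pparg* start, and in 12.4% of all. These are matches of letters, with no measurement of binding, and the *Adipoq* and *Retn* windows hold none of these 4 patterns.

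Signals are the log2 values that the authors made by RMA, with 1 value per probe set and mouse. Array medians were 6.002 to 6.155, and precision is limited by the small groups. Thyroglobulin (*Tg*), the product of follicular cells, had mean signals of 13.69 ± 0.04 without and 13.61 ± 0.06 with transgene RNA (SD, 9 non-malignant thyroids each). *Fabp4* had the highest mean of the white adipocyte genes over the 38 mice, 10.29, and *Lep* the lowest, 5.97, which is close to the array medians. Probe sets bind with different strength, so these levels rank nothing between genes. For tests, a filter by the rule that the study states kept 4388 probe sets. These were 1.5-fold or more away from the median in 20% of arrays or more, and 7 of the 9 genes passed this filter. *Pparg* and *Pnpla2* did not, and their values below come from the fit over all 35556 probe sets.

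The white adipocyte genes were highest in the *BRAF*(-) thyroids. For each of the 9 genes the *BRAF*(-) AT and the *BRAF*(-) BHL had the highest and the second highest group mean, and for each the *BRAF*(+) AT came next. BHL had the higher of the *BRAF*(-) means for 8 genes and AT for 1, *Retn*. The lowest mean was in BL for 4 genes, in *BRAF*(+) BHL for 3 and in PTC for 2. The distance from the highest to the lowest group mean was 0.71 (*Pnpla2*) to 1.41 (*Cidec*) on the log2 scale, against a pooled SD within groups of 0.30 for *Pnpla2* and 0.70 for *Cidec*.

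**Figure D1:**
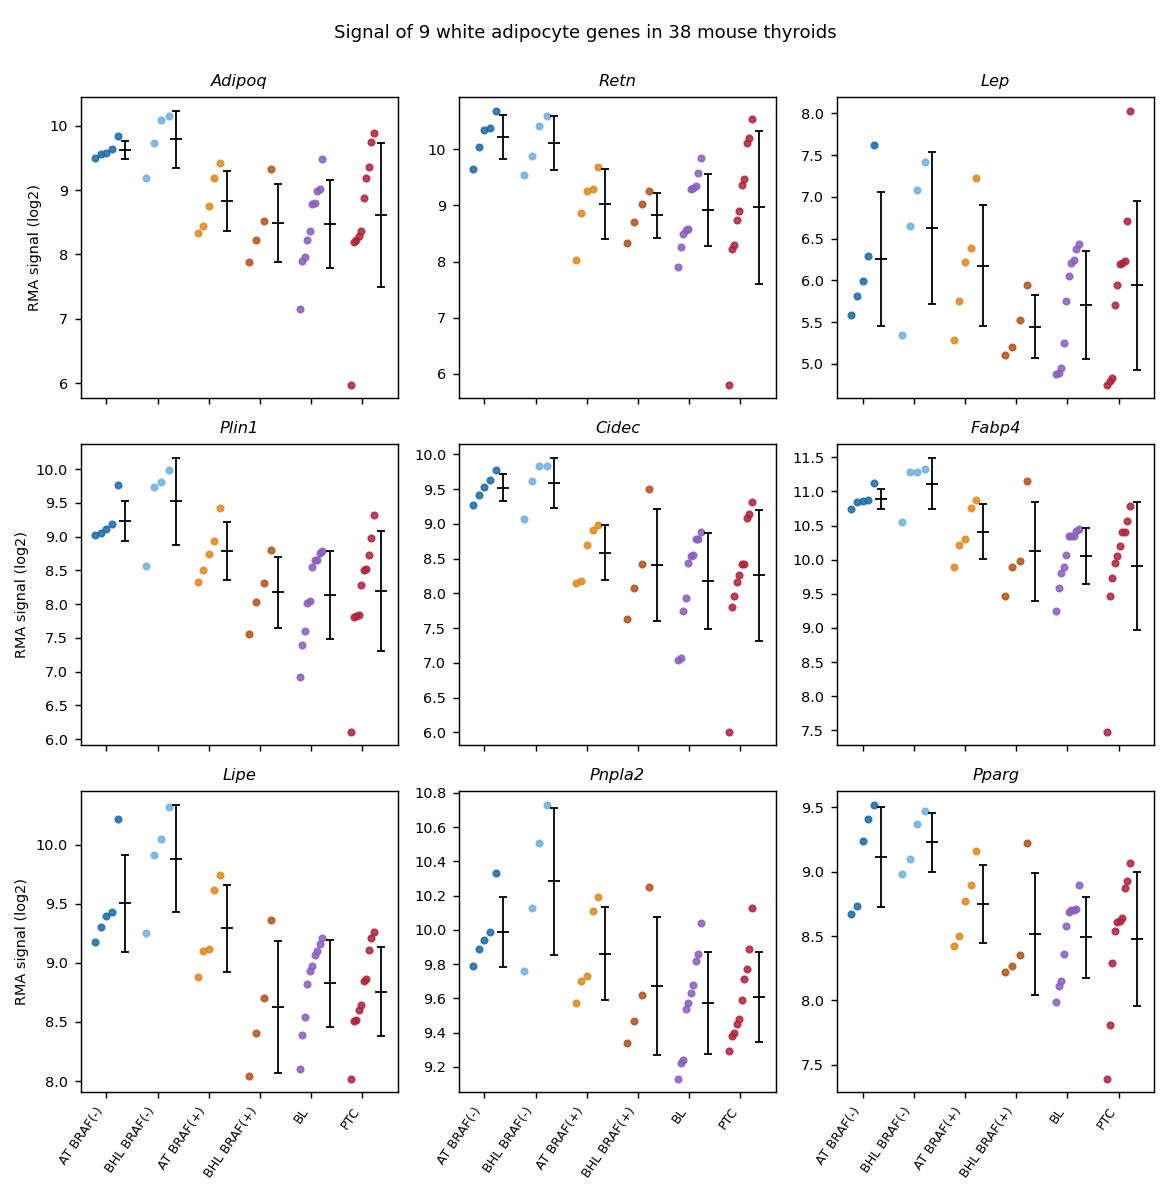
RMA signal (log2, vertical axis) of the 9 measured white adipocyte genes by group, with 1 point per mouse and the group mean ± SD as a black bar. The *BRAF*(-) groups have the highest means in every panel, and PTC mouse M_686 is far below the other mice for *Adipoq*, *Retn*, *Plin1*, *Cidec* and *Fabp4*.

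*Adipoq*, the hormone adiponectin, fell in *BRAF*(+) non-malignant thyroids. Its signals were 9.84, 9.58, 9.56, 9.63 and 9.49 in the *BRAF*(-) AT and 9.18, 8.75, 8.44, 9.42 and 8.34 in the *BRAF*(+) AT. They were 9.73, 9.18, 10.08 and 10.15 in the *BRAF*(-) BHL and 7.89, 8.23, 9.32 and 8.52 in the *BRAF*(+) BHL. The groups did not overlap in AT, while in BHL the *BRAF*(+) mouse M_958 lay above the lowest *BRAF*(-) mouse. The fitted log2 difference over the 18 mice, with lesion type and sex in the model, was -0.99 (standard error 0.22, adjusted p = 0.00427 from limma), which is 1.99-fold lower. In BL the signals ran from 7.16 to 9.48 with a median of 8.58, and every BL lay below all 5 *BRAF*(-) AT. In PTC they ran from 5.98 to 9.89 with a median of 8.62, and 8 of the 10 carcinomas lay below all 5 *BRAF*(-) AT.

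*Retn*, the hormone resistin, had the largest decrease of the 9 measured genes in *BRAF*(+) non-malignant thyroids. Its signals were 10.04, 10.38, 10.69, 10.35 and 9.66 in the *BRAF*(-) AT and 9.68, 9.3, 8.86, 9.25 and 8.03 in the *BRAF*(+) AT. They were 9.55, 9.88, 10.42 and 10.59 in the *BRAF*(-) BHL and 8.33, 8.7, 9.02 and 9.25 in the *BRAF*(+) BHL. In AT only the *BRAF*(+) mouse M_1003 passed the lowest *BRAF*(-) mouse, and in BHL the groups did not overlap. The log2 difference over the 18 mice was -1.24 (standard error 0.24, adjusted p = 0.00111), or 2.37-fold lower. BL lay between 7.91 and 9.84 with a median of 8.94, and PTC between 5.8 and 10.55 with a median of 9.14. Below all 5 *BRAF*(-) AT were 9 of 10 BL and 7 of 10 PTC, and the other 3 carcinomas, mice M_358, M_359 and M_884, were within the *BRAF*(-) AT range.

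*Lep*, leptin, which reports fat stores to the brain, varied widely between mice of 1 group. Its signals were 7.62, 5.59, 5.99, 5.81 and 6.29 in the *BRAF*(-) AT and 5.75, 6.22, 5.29, 7.22 and 6.39 in the *BRAF*(+) AT. They were 7.08, 5.34, 7.42 and 6.65 in the *BRAF*(-) BHL and 5.52, 5.95, 5.11 and 5.2 in the *BRAF*(+) BHL. The *BRAF*(+) and *BRAF*(-) ranges overlapped in both lesion types. Its log2 difference over the 18 mice was -0.55 (standard error 0.34, adjusted p = 0.279). The highest *Lep* signal of the 38 mice, 8.03, was in PTC mouse M_359, and the lowest, 4.75, in PTC mouse M_1002.

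*Plin1*, perilipin 1, fell as well. Its signals were 9.76, 9.03, 9.19, 9.06 and 9.11 in the *BRAF*(-) AT and 8.74, 8.94, 8.32, 9.43 and 8.5 in the *BRAF*(+) AT. They were 9.73, 8.57, 9.98 and 9.81 in the *BRAF*(-) BHL and 7.55, 8.03, 8.8 and 8.31 in the *BRAF*(+) BHL. In AT the *BRAF*(+) mouse M_945 was above 4 of the 5 *BRAF*(-) mice, and in BHL the overlap came from the *BRAF*(-) mouse M_764, at 24 months the oldest of the series, and the *BRAF*(+) mouse M_958. The log2 difference over the 18 mice was -0.81 (standard error 0.24, adjusted p = 0.0232), or 1.76-fold lower. Signals of 6.92 to 8.78 in BL (median 8.3) were all below the *BRAF*(-) AT, and those of 6.11 to 9.32 in PTC (median 8.39) were so in 9 of 10 mice.

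*Cidec*, which enlarges lipid droplets by fusing them, behaved much like *Adipoq*. Its signals were 9.63, 9.53, 9.42, 9.77 and 9.27 in the *BRAF*(-) AT and 8.7, 8.91, 8.15, 8.99 and 8.18 in the *BRAF*(+) AT. They were 9.83, 9.07, 9.84 and 9.62 in the *BRAF*(-) BHL and 7.63, 8.42, 9.51 and 8.08 in the *BRAF*(+) BHL. The AT groups did not overlap, and in BHL the *BRAF*(+) mouse M_958 again lay within the *BRAF*(-) range. The log2 difference over the 18 mice was -0.99 (standard error 0.21, adjusted p = 0.00295), or 1.99-fold lower. BL ran from 7.04 to 8.89 (median 8.49) and PTC from 6.01 to 9.32 (median 8.34), so that all BL and 9 of 10 PTC were below the *BRAF*(-) AT.

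*Fabp4*, the fatty acid carrier, had signals of 11.13, 10.74, 10.86, 10.84 and 10.88 in the *BRAF*(-) AT and 10.88, 10.3, 9.89, 10.76 and 10.22 in the *BRAF*(+) AT. In BHL they were 11.33, 10.55, 11.29 and 11.29 without and 9.47, 9.89, 11.16 and 9.98 with *BRAF*V600E RNA. The log2 difference over the 18 mice was -0.67 (standard error 0.22, adjusted p = 0.0354), or 1.59-fold lower, and the groups overlapped in both lesion types. This call was lost when any 1 of 9 of the 18 mice was left out, with adjusted p values up to 0.0761. All BL, at 9.25 to 10.45 (median 10.2), and 9 of 10 PTC, at 7.48 to 10.79 (median 10.12), lay below the *BRAF*(-) AT.

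The lipases did not pass the threshold over the 18 mice. *Lipe*, hormone-sensitive lipase, had signals of 10.22, 9.3, 9.43, 9.4 and 9.18 in the *BRAF*(-) AT and 9.12, 9.62, 8.88, 9.74 and 9.1 in the *BRAF*(+) AT, and of 10.32, 9.25, 10.05 and 9.91 in the *BRAF*(-) BHL and 8.04, 8.41, 9.36 and 8.7 in the *BRAF*(+) BHL. In AT the groups overlapped widely, and in BHL only the *BRAF*(-) mouse M_764 and the *BRAF*(+) mouse M_958 crossed. Over the 18 mice its log2 difference of -0.62 (standard error 0.23, adjusted p = 0.061) had an unadjusted p under 0.05. *Pnpla2*, which starts the breakdown of triglyceride, was at 9.99 ± 0.2 in the *BRAF*(-) AT and at 9.86 ± 0.27 in the *BRAF*(+) AT (SD, n = 5 each), and at 10.28 ± 0.43 and 9.67 ± 0.41 (SD, n = 4 each) in the BHL. In the fit over all probe sets its log2 difference over the 18 mice was -0.30 (standard error 0.14, adjusted p = 0.273).

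*Pparg*, the receptor that drives adipocyte formation, was at 9.12 ± 0.39 in the *BRAF*(-) AT and at 8.75 ± 0.3 in the *BRAF*(+) AT (SD, n = 5 each), and at 9.23 ± 0.23 and 8.51 ± 0.47 (SD, n = 4 each) in the BHL. In BL it was at 8.49 ± 0.31 and in PTC at 8.48 ± 0.52 (SD, n = 10 each). In the fit over all probe sets its log2 difference over the 18 mice was -0.50 (standard error 0.16, adjusted p = 0.0894), and all 9 *BRAF*(+) mice lay below the *BRAF*(-) median. It passed the threshold in that fit for PTC against *BRAF*(-) AT, with a difference of -0.64 (standard error 0.22, adjusted p = 0.0364). This call was lost in 6 of 15 fits that each left out 1 mouse (M_1002, M_348, M_524, M_686, M_956 or M_957, with adjusted p values up to 0.123), in the fit on only the groups compared and without the mice whose mean over skeletal muscle genes was above 8.

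Of the 7 genes tested, 5 fell in *BRAF*(+) non-malignant thyroids (*Adipoq*, *Retn*, *Plin1*, *Cidec* and *Fabp4*), where 8.34% of the 4388 probe sets fell, and 0 rose. The median log2 difference of the 9 measured genes was -0.67, against 0.02 over all probe sets, and all 9 differences were below 0, as were 45.1% of those of all probe sets. *Adipoq*, *Retn*, *Plin1*, *Cidec*, *Fabp4*, *Lipe* and *Pparg* are among the genes that the study itself selected on these mice, so their direction is not independent evidence. The study's selection of *Lipe* and *Pparg* was not reproduced here. In limma *Lipe* had an adjusted p of 0.061, and *Pparg*, outside the filter as applied here, one of 0.0894 in the fit over all probe sets. The cause of this difference from the study was not tested. Without *BRAF*(-) BHL mouse M_930, 3 of the 7 genes passed the threshold, *Plin1* (adjusted p = 0.0593) and *Fabp4* (adjusted p = 0.0761) being lost.

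**Figure D2:**
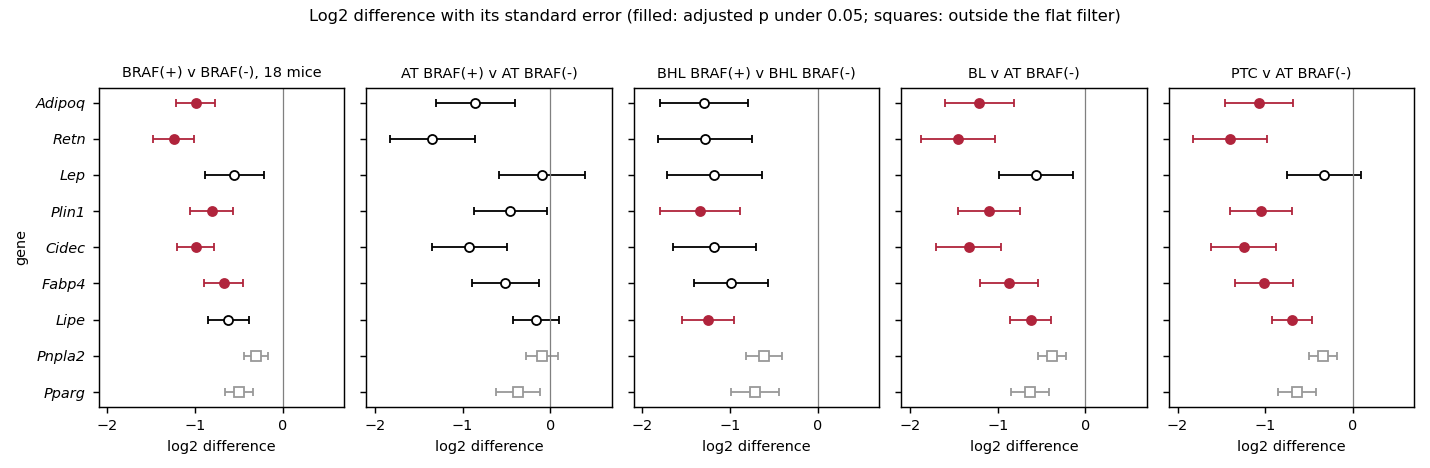
Log2 difference (horizontal axis) with its standard error for each of the 9 measured genes in 5 comparisons. Filled red points passed an adjusted p of 0.05, open circles did not, and grey squares are *Pnpla2* and *Pparg*, which did not pass the filter and come from the fit over all probe sets. All points lie left of 0, with *Lep* at -0.10 and *Pnpla2* at -0.09 closest to it in AT.

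In AT alone, compared within a model of all 6 groups, 0 of the 7 genes passed the threshold in limma, where 0.251% of the probe sets fell, and 2 of the 7 had an unadjusted p under 0.05. *Retn* was at -1.34 (standard error 0.49, adjusted p = 0.118) and *Cidec* at -0.92 (standard error 0.43, adjusted p = 0.253). For *Adipoq* and *Cidec* every *BRAF*(+) mouse was below every *BRAF*(-) mouse, as for 0.775% of the probe sets. The spread of this model is shared by all groups, and the SD of *Adipoq* was 0.13 in the *BRAF*(-) AT and 1.12 in PTC. The count stayed at 0 in all settings run, among them a fit on the AT groups alone. The lowest adjusted p over these settings in limma was 0.213 for *Adipoq* and 0.121 for *Cidec*.

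In BHL 2 of the 7 genes fell, where 10.7% of the probe sets did. These were *Lipe*, at -1.25 (standard error 0.29, adjusted p = 0.00181), and *Plin1*, at -1.35 (standard error 0.46, adjusted p = 0.0261). *Adipoq* at -1.30, *Retn* at -1.29, *Cidec* at -1.18, *Lep* at -1.18 and *Fabp4* at -0.99 had standard errors of 0.42 to 0.54 and adjusted p values of 0.0553 to 0.113. *Retn* was the gene whose groups did not overlap, as for 8.18% of the probe sets. The count in BHL rests on single mice and on the model. It was 6 without the *BRAF*(+) mouse M_958, 4 without the *BRAF*(-) mouse M_764, and 1 without any 1 of the mice M_701, M_930, M_946, M_942 and M_943. In a fit on the 8 BHL alone 5 of the 7 genes fell.

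Whether the *BRAF* effect differed between the lesion types was tested as an interaction over the 18 mice, and 0 of the 7 genes passed in limma, where 0.342% of the probe sets passed with a larger decrease in BHL. *Lipe* was closest, with a difference between the effects of -1.16 (standard error 0.38, adjusted p = 0.193), followed by *Plin1* at -0.98 (standard error 0.44, adjusted p = 0.291), and these were the 2 genes with an unadjusted p under 0.05. With array weights *Lipe* passed, at an adjusted p of 0.0461. For *Retn* the difference between the effects was -0.08 (standard error 0.48).

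Between AT and BHL of equal *BRAF* status no difference in these genes passed the threshold. In *BRAF*(-) BHL against *BRAF*(-) AT, 0 of the 7 genes and 0 of the 4388 probe sets passed in limma. At an unadjusted p under 0.05 these counts were 0 and 139. The fitted differences of the 9 measured genes ran from -0.22 (*Retn*) to 0.41 (*Lipe*). In *BRAF*(+) BHL against *BRAF*(+) AT, 0 of the 7 genes passed and 3.1% of the probe sets fell. All 9 differences were below 0 there, from -0.73 for *Lep* to -0.16 for *Retn*. *Lipe*, at -0.68 (standard error 0.28, adjusted p = 0.1), was the 1 gene of the 7 with an unadjusted p under 0.05. Of the 4388 probe sets 1285 had such a p, counting both directions. Between 5 male and 13 female non-malignant mice 0 of the 7 genes and 49 of the 4388 probe sets passed in limma. At an unadjusted p under 0.05 the counts were 0 and 605. The differences of the 9 measured genes ran from -0.04 to 0.50. The males were 4 to 10 months old (median 6) and the females 7 to 24 (median 11), so sex and age cannot be told apart here.

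BL and PTC were compared with the *BRAF*(-) AT, which both comparisons share. In BL 6 of the 7 genes fell, where 8.27% of the probe sets did. *Retn* was at -1.45 (standard error 0.42, adjusted p = 0.00961), *Cidec* at -1.33 (standard error 0.37, adjusted p = 0.00708), *Adipoq* at -1.21 (standard error 0.39, adjusted p = 0.0183) and *Plin1* at -1.10 (standard error 0.36, adjusted p = 0.0183). *Fabp4*, at -0.87, and *Lipe*, at -0.63, had adjusted p values of 0.0411 and 0.0346. Every BL was below every *BRAF*(-) AT for *Adipoq*, *Plin1*, *Fabp4* and *Cidec*, 4 of the 7 genes, as for 1.03% of the probe sets. *Lep* was at -0.56 (standard error 0.42, adjusted p = 0.314). Without the *BRAF*(-) AT mouse M_524, which had the highest *Plin1* and *Lipe* signals of its group, 3 of the 7 genes passed. The calls in BL of *Fabp4* and *Lipe* were lost in 9 and in 7 of 16 fits that each left out 1 mouse, with adjusted p values up to 0.154 and 0.135 over all settings.

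In PTC 6 of the 7 genes fell, where 10.7% of the probe sets did. *Retn* was at -1.40 (standard error 0.42, adjusted p = 0.00841), *Cidec* at -1.25 (standard error 0.37, adjusted p = 0.00758), *Adipoq* at -1.07 (standard error 0.39, adjusted p = 0.0285) and *Plin1* at -1.05 (standard error 0.36, adjusted p = 0.0184). *Fabp4* was at -1.02 and *Lipe* at -0.70, with adjusted p values of 0.0142 and 0.0149, and *Lep* at -0.33 (standard error 0.42, adjusted p = 0.552). For 0 of the 7 genes did the groups separate, PTC mouse M_359 being above the lowest *BRAF*(-) AT mouse for 5 of them, *Adipoq*, *Retn*, *Plin1*, *Lep* and *Lipe*. The share of all probe sets whose groups separate in this comparison is not given, so nothing is read from that count. Without PTC mouse M_686 the difference of *Adipoq* was -0.70 (adjusted p = 0.083) and that of *Plin1* -0.73 (adjusted p = 0.0542), while 4 genes still passed. Without AT mouse M_524, 3 passed, and with females only, 0 passed in limma and 2 had an unadjusted p under 0.05, *Cidec* being closest at -0.94 (adjusted p = 0.0538). The share of all probe sets with such a p in females only is not given.

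No difference between PTC and BL passed the threshold for these genes. In that comparison 0 of the 7 genes and 0 of the 4388 probe sets passed in limma. At an unadjusted p under 0.05 these counts were 0 and 150. The differences of the 9 measured genes ran from -0.14 (*Fabp4*) to 0.24 (*Lep*). PTC had the widest spread of the 6 groups for 7 of the 9 genes, the exceptions being *Lipe*, widest in *BRAF*(+) BHL, and *Pnpla2*, widest in *BRAF*(-) BHL. For *Adipoq*, *Retn*, *Plin1*, *Fabp4* and *Cidec* the PTC spread rests in part on mouse M_686, which lay far below the other carcinomas. The spread without this mouse was not computed.

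**Figure D3:**
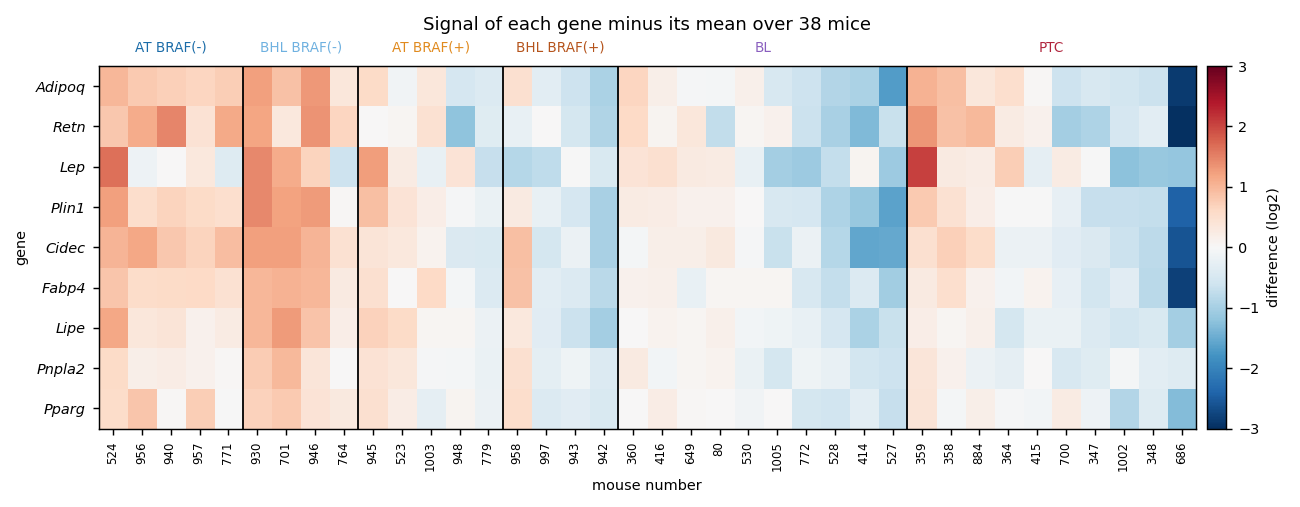
Signal of each of the 9 measured genes (rows) in each of the 38 mice (columns, by mouse number), minus the mean of that gene over the 38 mice, on a log2 colour scale from -3 (blue) to 3 (red). Groups are separated by black lines and mice are ordered within a group by the mean of the 9 differences. All 9 *BRAF*(-) mice have a mean above 0, from 0.18 to 1.11, while PTC mice run from -2.0 (mouse M_686) to 0.77 (mouse M_359).

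The genes moved together from mouse to mouse. The mean of the 9 genes, each taken as the difference from its own mean over the 38 mice, was above 0 in all 9 *BRAF*(-) mice, the lowest being the BHL mouse M_764 at 0.18. Among the *BRAF*(+) mice it reached 0.58 in AT mouse M_945, 0.31 in BHL mouse M_958, 0.25 in BL mouse M_360 and 0.77 in PTC mouse M_359. PTC mouse M_686, a male of 7 months, was at -2.0 and had the lowest signal of all 38 mice for 7 of the 9 genes. The exceptions were *Lep*, lowest in PTC mouse M_1002, and *Pnpla2*, lowest in BL mouse M_527. The next lowest means were -1.07 in BL mouse M_527, -0.79 in BL mouse M_414 and -0.78 in BHL mouse M_942.

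*Adipoq* was set against each of the other 8 measured genes over the 38 mice, after the mean of each group was taken off, with 100000 permutations of the mice within groups. All 8 relations passed. *Plin1* followed it most closely, with r = 0.95 and rho = 0.93, followed by *Fabp4* (r = 0.93, rho = 0.89), *Cidec* (r = 0.91, rho = 0.88) and *Retn* (r = 0.87, rho = 0.79). For these 4 genes the two-sided permutation p of r was 1e-05, the smallest these permutations can give, and the value adjusted over the 8 relations was 1.6e-05. *Lipe* (r = 0.73, rho = 0.77, adjusted p = 1.6e-05 by permutation of r), *Pparg* (r = 0.73, rho = 0.61, adjusted p = 4.57e-05) and *Pnpla2* (r = 0.64, rho = 0.72, adjusted p = 2.67e-05) were looser. *Lep* was the loosest, with r = 0.61, rho = 0.58 and an adjusted permutation p of 0.00044. Without PTC mice M_686 and M_359, the 2 farthest from the median, r was still 0.92 for *Plin1*, 0.87 for *Fabp4*, 0.85 for *Cidec*, 0.74 for *Retn*, 0.70 for *Lipe*, 0.69 for *Pnpla2*, 0.58 for *Pparg* and 0.52 for *Lep*. In each mouse all these signals come from the same piece of tissue, and the genes were known to be fat genes when they were chosen.

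**Figure D4:**
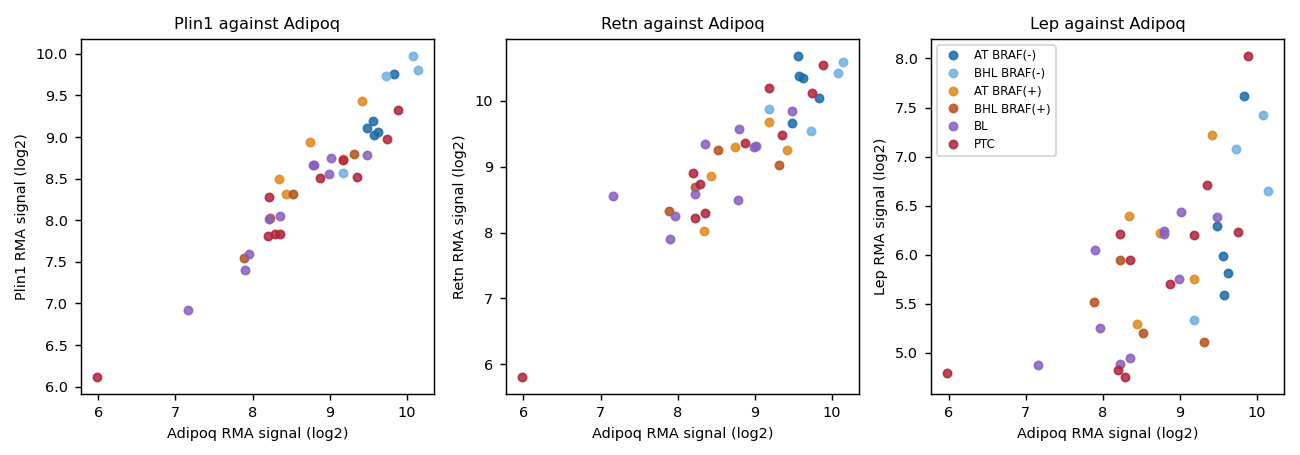
Signal of *Plin1*, *Retn* and *Lep* (vertical axes, log2) against that of *Adipoq* (horizontal axis, log2), with 1 point per mouse coloured by group. *Plin1* forms a narrow band with *Adipoq* over all groups (r = 0.96 on values as deposited), *Retn* a wider one (r = 0.90), and *Lep* a loose one (r = 0.66), in which mice of equal *Adipoq* signal differ widely in *Lep*.

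Genes outside the 10, not all of them on a list of fat genes, followed the same mice. Among all named genes outside the 10, those whose signals over the 38 mice were most like the mean of the 9 genes were *Orm1*, an acute phase protein (r = 0.94), *Slc36a2*, a carrier of small amino acids (r = 0.93), *Aqp7*, the glycerol channel of adipocytes (r = 0.92), and *Rbp4*, a retinol carrier that fat secretes (r = 0.91). *Fasn*, fatty acid synthase, *Thrsp*, a lipogenic protein, *Adig*, adipogenin, *Adhfe1* and *Cdo1*, cysteine dioxygenase, each had r = 0.91, and *Agpat2*, an enzyme of triglyceride synthesis, r = 0.90. These are descriptions over mice of all 6 groups, chosen for their likeness, and carry no test.

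Of other genes enriched in adipocytes, 8 of 9 tested fell in *BRAF*(+) non-malignant thyroids, where 8.34% of the 4388 probe sets fell. The median log2 difference over the 14 measured genes of this list was -0.64. *Orm1* was at -1.14 (standard error 0.29, adjusted p = 0.00974), *Rbp4* at -0.86 (standard error 0.28, adjusted p = 0.0363) and *Mrap*, a partner of the melanocortin receptors, at -0.84 (standard error 0.22, adjusted p = 0.012). Of the genes of triglyceride synthesis and glucose entry 4 of 6 tested fell, led by *Pck1*, which makes the glycerol backbone, at -1.10 (standard error 0.35, adjusted p = 0.0312), *Dgat2*, which completes the triglyceride, at -0.91 (standard error 0.26, adjusted p = 0.0165), and *Slc2a4*, the insulin-responsive glucose transporter, at -0.80 (standard error 0.26, adjusted p = 0.0344). Of the partners of lipid droplets and lipolysis 2 of 3 tested fell, *Mgll*, monoglyceride lipase, at -0.79 (standard error 0.17, adjusted p = 0.00377) and *Plin4* at -0.62 (standard error 0.19, adjusted p = 0.0259). Of the genes of fatty acid uptake 1 of 4 fell, *Lpl*, lipoprotein lipase, at -0.77 (standard error 0.27, adjusted p = 0.0472).

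Of 11 measured adipogenic transcription factors 1 passed the filter, and this gene, *Klf5*, a factor that is also active in epithelia, rose by 0.69 (standard error 0.19, adjusted p = 0.0135), while the median of the list was -0.02. Of the genes of adrenergic and insulin control 1 of 3 tested rose, *Adcy3*, an adenylyl cyclase, at 0.82 (standard error 0.20, adjusted p = 0.00734), and 1 fell, *Prkar2b*, a regulatory subunit of protein kinase A, at -0.77 (standard error 0.25, adjusted p = 0.0336). Of the adipokine receptors 0 of 2 tested passed in limma and 0 had an unadjusted p under 0.05, and *Cap1*, named as a resistin receptor, did not pass the filter and was at 0.10 (standard error 0.09). Of the genes of fat progenitors and stroma 1 of 3 tested rose, *Dlk1*, which marks preadipocytes but also other cells. It rose by 3.31 (standard error 0.30, adjusted p = 1.58e-07), while the median of the 7 measured genes of this list was 0.06. In this comparison 883 of the 4388 probe sets passed and 1395 had an unadjusted p under 0.05, counting both directions.

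Markers of other tissues were read in the same mice, in a comparison where 8.34% of the 4388 probe sets fell. Of 7 tested brown adipocyte genes 2 fell in *BRAF*(+) non-malignant thyroids, the cytochrome oxidase subunits *Cox8b* at -1.40 (standard error 0.47, adjusted p = 0.0406) and *Cox7a1* at -1.28 (standard error 0.45, adjusted p = 0.0466), and the median over 10 measured genes was -1.20. Their summed signal ran from 2360 to 10100 in *BRAF*(-) and from 1210 to 7200 in *BRAF*(+) non-malignant thyroids, and *Ucp1*, the uncoupling protein that defines brown fat, was at 10.28 ± 1.23 and 8.3 ± 2.75 (SD, n = 9 each). Over the 38 mice the mean of the brown genes had r = 0.77 with that of the white genes. The *BRAF*(+) BHL mouse M_958, whose white genes were high, also had the highest mean of the brown genes in its group, 9.0 against 6.38 to 6.64 in the other 3 mice. In the single groups 0 of the 7 tested brown genes passed in AT, where 0 had an unadjusted p under 0.05 in limma and the median of the 10 was -0.25. In BHL 6 of the 7 fell, with a median of -2.12, where 10.7% of the probe sets fell. Against *BRAF*(-) AT 6 of the 7 fell in BL and all 7 in PTC, with medians of -1.20 and -1.41. The shares of all probe sets that fell there were 8.27% and 10.7%. The summed brown signal was 2360 to 8700 in *BRAF*(-) AT, 1260 to 5710 in BL and 1110 to 3030 in PTC. The part of the brown adipocyte signal in the decrease of the white adipocyte genes was not tested. Whether white or brown adipocytes gave the signal of these genes was not tested either.

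Of 10 tested skeletal muscle genes 0 passed in limma and 3 had an unadjusted p under 0.05, as had 1395 of the 4388 probe sets. The median of the muscle genes was -1.22. *Acta1*, skeletal actin, was at -1.24 (standard error 0.62, adjusted p = 0.171). The *BRAF*(-) AT mouse M_940 and the *BRAF*(-) BHL mouse M_764 had means of 9.91 and 9.67 over these genes, and the other non-malignant thyroids had 5.21 to 5.86. The summed muscle signal ran from 425 to 14000 in *BRAF*(-) and from 434 to 570 in *BRAF*(+) non-malignant thyroids. Mouse M_764 had the lowest signal of its group for 8 of the 9 white adipocyte genes and mouse M_940 for 0, and over the 38 mice the mean of the muscle genes had r = -0.01 with that of the white genes. Of 3 tested parathyroid genes 0 passed in limma and 3 had an unadjusted p under 0.05, with a median of -1.86. *Chga*, chromogranin A, was at -1.86 (standard error 0.83, adjusted p = 0.124). *Pth*, parathyroid hormone, which defines the gland, lay at 3.04 to 3.59 in all 9 *BRAF*(+) non-malignant thyroids, near the 10th percentile of all values (3.46), and at 3.01 to 12.95 in the 9 *BRAF*(-). The summed parathyroid signal ran from 125 to 18600 in *BRAF*(-) and from 102 to 776 in *BRAF*(+) non-malignant thyroids, and the *BRAF*(-) mice of the highest parathyroid signal, M_524 in AT and M_930 and M_946 in BHL, are among those of the highest white adipocyte signal. Over the 38 mice the mean of the parathyroid genes had r = 0.41 with that of the white genes, and r = 0.38 after the mean of each group was taken off. In PTC the highest means of the parathyroid genes, 10.33, 10.88 and 11.86, were in mice M_358, M_359 and M_884, the carcinomas whose *Retn* signal was within the *BRAF*(-) AT range. In BL the highest were 11.55 in mouse M_527 and 10.62 in mouse M_649. Mouse M_527 had the lowest mean of the white adipocyte genes in BL, 7.7, and mouse M_649 had 8.86, within a BL range of 7.7 to 9.03.

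The comparisons by *BRAF* status and those of BL and PTC were repeated without the mice of high muscle or high parathyroid signal, a choice made after seeing the data. Without the 8 mice whose mean over the muscle genes was above 8, 4 of the 7 white adipocyte genes passed for *BRAF* status in non-malignant thyroids, 4 in BHL, 3 in BL and 6 in PTC. Without the 8 mice whose mean over the parathyroid genes was above 9, 3 passed in non-malignant thyroids, 1 in BHL, 2 in BL and 6 in PTC. In non-malignant thyroids without the latter *Plin1* was at -0.50 (adjusted p = 0.185) and *Fabp4* at -0.51 (adjusted p = 0.184), and *Adipoq*, *Retn* and *Cidec* still passed. All non-malignant mice left out were *BRAF*(-), 1 AT and 1 BHL for muscle and 1 AT and 2 BHL for parathyroid. The share of all probe sets that passed in these smaller fits is not given. Lost precision and the tissue left out therefore cannot be told apart in these counts.

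**Figure D5:**
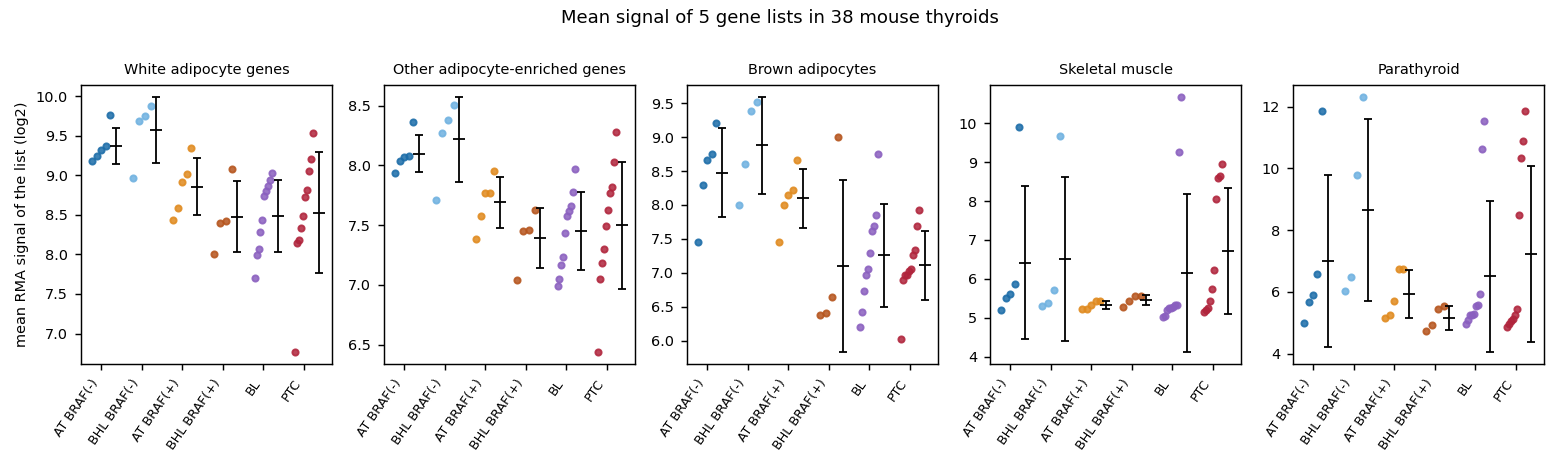
Mean signal (log2, vertical axis) over 5 gene lists in each mouse, by group, with the mean ± SD of the group as a black bar. The white adipocyte genes and the other adipocyte-enriched genes are highest in both *BRAF*(-) groups, the brown adipocyte genes spread more widely, and the muscle and parathyroid genes are high in single mice and near their lowest values in the rest.

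Thyroid, macrophage and endothelial genes were read in the same way. In *BRAF*(+) non-malignant thyroids 8.34% of the 4388 probe sets fell, and 1395 had an unadjusted p under 0.05 in either direction. Of 4 tested thyroid follicular genes 2 fell there, *Dio1*, a deiodinase, at -1.61 (standard error 0.37, adjusted p = 0.00503) and *Slc5a5*, which takes up iodide, at -1.13 (standard error 0.29, adjusted p = 0.00974). The median over 8 measured genes was -0.25, with a summed signal of 19600 to 26200 in *BRAF*(-) and 17100 to 25200 in *BRAF*(+) thyroids. Of 5 tested macrophage genes 0 passed in limma and 3 had an unadjusted p under 0.05, with a median of 0.53 and a summed signal of 910 to 3160 in *BRAF*(-) and 1220 to 3860 in *BRAF*(+) thyroids, and *Csf1r*, the receptor that macrophages need to live, was at 0.50 (standard error 0.20) outside the filter. Against *BRAF*(-) AT 4 of the 5 tested macrophage genes rose in BL and 4 in PTC, with medians of 0.82 and 0.91 over 6 measured genes. Of the 4388 probe sets 1431 passed in BL and 1732 in PTC, counting both directions, and of these 363 and 468 fell while the rest rose. The summed macrophage signal was 910 to 2060 in *BRAF*(-) AT, 1790 to 3140 in BL and 1340 to 3000 in PTC. Of the 4 tested thyroid follicular genes 1 fell in BL and all 4 fell in PTC, where 8.27% and 10.7% of the probe sets fell. The medians over the 8 measured were -0.37 and -0.60. In *BRAF*(+) against *BRAF*(-) BHL 3 fell, with a median of -0.35, where 10.7% of the probe sets fell. The part of the thyroid and macrophage signals in the decrease of the white adipocyte genes was not tested. Of the 6 endothelial genes 0 passed the filter, with a median of -0.13 and a summed signal of 4080 to 6660 and of 3790 to 5820, and *Emcn*, endomucin, was at -0.32 (standard error 0.13). Endothelium and macrophages also make *Fabp4*, and their part in its difference was not tested.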

How the data were processed

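RNA from 38 mouse thyroids was hybridised to GeneChip Mouse Gene 1.0 ST arrays, with no pooling of mice. The authors normalized the arrays by RMA, and the deposited values are log2 signals of 35556 probe sets, which were used as given. Of these, 21789 carry a single gene symbol in the platform annotation, 1621 carry several and 12146 are not listed and were left unnamed. Control probe sets are not marked and were not removed. Each gene was read from its single-symbol probe set of highest mean.

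Tests were run in limma (version 3.58.1, R version 4.3.3) on the 4388 probe sets that were 1.5-fold or more from the median in 20% of arrays or more, with Benjamini-Hochberg adjustment over all of them and a threshold of 0.05. The 18 non-malignant thyroids were fitted by *BRAF* status, lesion type and sex, and single groups in a model of the 6 groups and sex. The script was tested on simulated data. Settings tried were no filter, a filter on the 18 mice, centred arrays, an intensity trend, array weights, age, no covariates, females only, only the groups compared, each mouse left out, and, added after seeing the data, mice of high muscle or parathyroid signal left out.

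The white adipocyte genes and all gene lists were chosen with earlier results of these data known. Genes outside the 10 are named by a rule, up to 3 genes of each list that passed with the largest differences (where none passed, the gene of highest mean) and the 10 named genes most like the mean of the 9. The groups are separate mice, whose numbers pair no mice between groups.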

Additional observations from a re-analysis of the deposited data

Results flagged for a closer look

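In groups of 4 to 10 mice the highest and the lowest value were set against the nearest of the others, and 9 of the 54 pairs of gene and group had a value that stood apart by Dixon's criterion, which chance meets in about 1 in 20 groups. The 9 genes are not independent of each other, since they share the mice. PTC mouse M_686 was the lowest of 10 for 5 genes, with *Adipoq* at 5.98 (next 8.2), *Retn* at 5.8 (next 8.22), *Plin1* at 6.11 (next 7.81), *Fabp4* at 7.48 (next 9.47) and *Cidec* at 6.01 (next 7.81). In the *BRAF*(-) AT, mouse M_524 was the highest of 5 for *Plin1* at 9.76 (next 9.19) and *Lipe* at 10.22 (next 9.43). In the *BRAF*(-) BHL, mouse M_764 was the lowest of 4 for *Fabp4* at 10.55 (next 11.29). In the *BRAF*(+) BHL, mouse M_958 was the highest of 4 for *Pparg* at 9.22 (next 8.35).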

How the results depend on the processing

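Counts below are of the 7 tested white adipocyte genes that passed. For *BRAF* status in non-malignant thyroids the count of 5 was 3 to 6 with any single mouse left out, and 3 without the mice of high parathyroid signal. *Adipoq*, *Retn* and *Cidec* passed in all of these settings. In AT it stayed at 0 in every setting run. In BHL the count of 2 was 1 without the filter, 4 with array weights, 4 with age, 6 in females only, 5 with only the groups compared, 4 without the mice of high muscle signal and 1 without those of high parathyroid signal. It was 1 to 6 with any single mouse left out. In BL the count of 6 was 3 in females only, 3 without the mice of high muscle signal and 2 without those of high parathyroid signal, and 3 to 6 with any single mouse left out. In PTC the count of 6 was 0 in females only, and 3 to 6 with any single mouse left out. With array weights the interaction and *BRAF*(+) BHL against *BRAF*(+) AT had 1 in place of 0. No value that passed changed sign. *Lep*, which did not pass, turned positive in AT with array weights (0.17), in females only (0.13) and without the mice of high parathyroid signal (0.25), with a range of -0.35 to 0.24 over fits that leave out 1 mouse. In PTC it was 0.020 in females only, with such a range of -0.55 to 0.012. *Pnpla2*, which did not pass either, was at 0.0026 in AT with array weights. The cause was not tested. All 8 relations with *Adipoq* passed on values not centred on the group and on centred arrays. Taking the mean over several probe sets of a gene was not run, since each measured gene has 1. No paired analysis was possible because the mouse numbers are not shared between groups.

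The arrays give no count, so no limit of detection can be given for them. The groups of 4 or 5 mice limit the precision, 9 of the 38 mice were males, and the RNA and the diagnosis come from different parts of a gland.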
